A study of Rattus norvegicus with 12 samples.

Results

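The 26S proteasome was followed through the genes of its subunits, its alternative subunits, its activators, its inhibitor and the chaperones that assemble it. The members were all genes whose single symbol in the platform annotation was Psm, then a letter from a to g, then a number (Psma1, Psmb5 and so on). Of 14217 genes measured on the arrays, 44 were members, and each was read from its brightest probe set, the group of short probes that reports 1 transcript. A list of 48 such symbols was set up by subcomplex, and 4 of them had no value here. Psmb6 and Psme3 lay on probe sets annotated with several symbols, and Psma8 and Psmb11 were not analysed here.

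Cells of F111, a rat fibroblast line that grows attached to its dish, were compared in 2 states. In A16 the cells were plated on plastic for 16 h, and in NA16 they were held for 16 h in suspension above agarose, to which they do not attach. Both states shared the line, the medium with fetal calf serum and the temperature, the labels name no drug and no engineered allele for either, and A16 was the control. The comparison asked which transcripts differ when fibroblasts are deprived of adhesion, a condition under which many normal cells die by anoikis. The paper reports that only a minority of the suspended cells of this line were still viable at this time. It also describes apoptotic proteins and DNA fragmentation in that population. No removal of dead cells before RNA extraction is described. How far lost viability entered the changes given below was not tested. There were 6 arrays, 3 for each state: biological replicate 1, technical replicate 2 and biological replicate 2, always given in this order below. Technical replicate 2 was averaged with biological replicate 1, to which the labels point, so that n was 2 for each state. In A16 it also correlated best with biological replicate 1 (r = 0.997 over all probe sets that were not controls). In NA16, however, it correlated better with biological replicate 2 (r = 0.997) than with biological replicate 1 (r = 0.993). Without technical replicate 2 the counts of lower and higher members given below would be 20 and 4. Whether the biological replicates were separate cultures is not stated, so the p-values cover the spread among these arrays only, which may be technical. F111 is 1 established line, and its response need not be that of other fibroblasts. The RNA came from whole populations, in which fewer cells of a kind and less RNA per cell cannot be told apart, and each array measured a transcript relative to all others.

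The proteasome degrades most short-lived and damaged proteins of the cell after these have been tagged with ubiquitin. Its barrel-shaped core (20S) is made of outer rings of alpha subunits, which form the gate, and inner rings of beta subunits, of which Psmb5, Psmb6 and Psmb7 cut peptide bonds. A regulatory particle (19S) caps the core: its base holds a ring of ATPases that unfold the substrate together with ubiquitin receptors, and its lid removes the ubiquitin chain. Cells exposed to interferon exchange the cutting subunits for Psmb8, Psmb9 and Psmb10, and the resulting immunoproteasome supplies peptides for antigen presentation.

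Most subunits of the standard 26S proteasome were lower in suspension, while of the 14 members outside it 4 were higher and 3 lower. Of the 44 members, 26 were lower in NA16, 4 were higher and 14 were not called by limma at an adjusted p below 0.05. Over all genes tested, 16.9% were called lower and 21.9% were called higher. The 4 higher members were Psmb8 and Psmb9 of the immunoproteasome, the base chaperone gene Psmd10 and the inhibitor gene Psmf1. At least a 2-fold difference was seen for 8 lower members (18.2%), against 6.12% of all genes, and for 3 higher members, against 7.74% of all genes. The median log2 change of the members was -0.53, beside 0.01 for all genes. On 43 of 44 members the probe set was brighter than the median gene, and calls were more frequent among bright genes: of the genes brighter than the median 26.9% were called lower and 29.1% higher. Without averaging, all 3 NA16 arrays lay below all 3 A16 arrays for 28 members, against 23.9% of all genes. They lay above for 4 members, against 27.8% of all genes, and the arrays of the other 12 members overlapped.

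**Figure D1:**
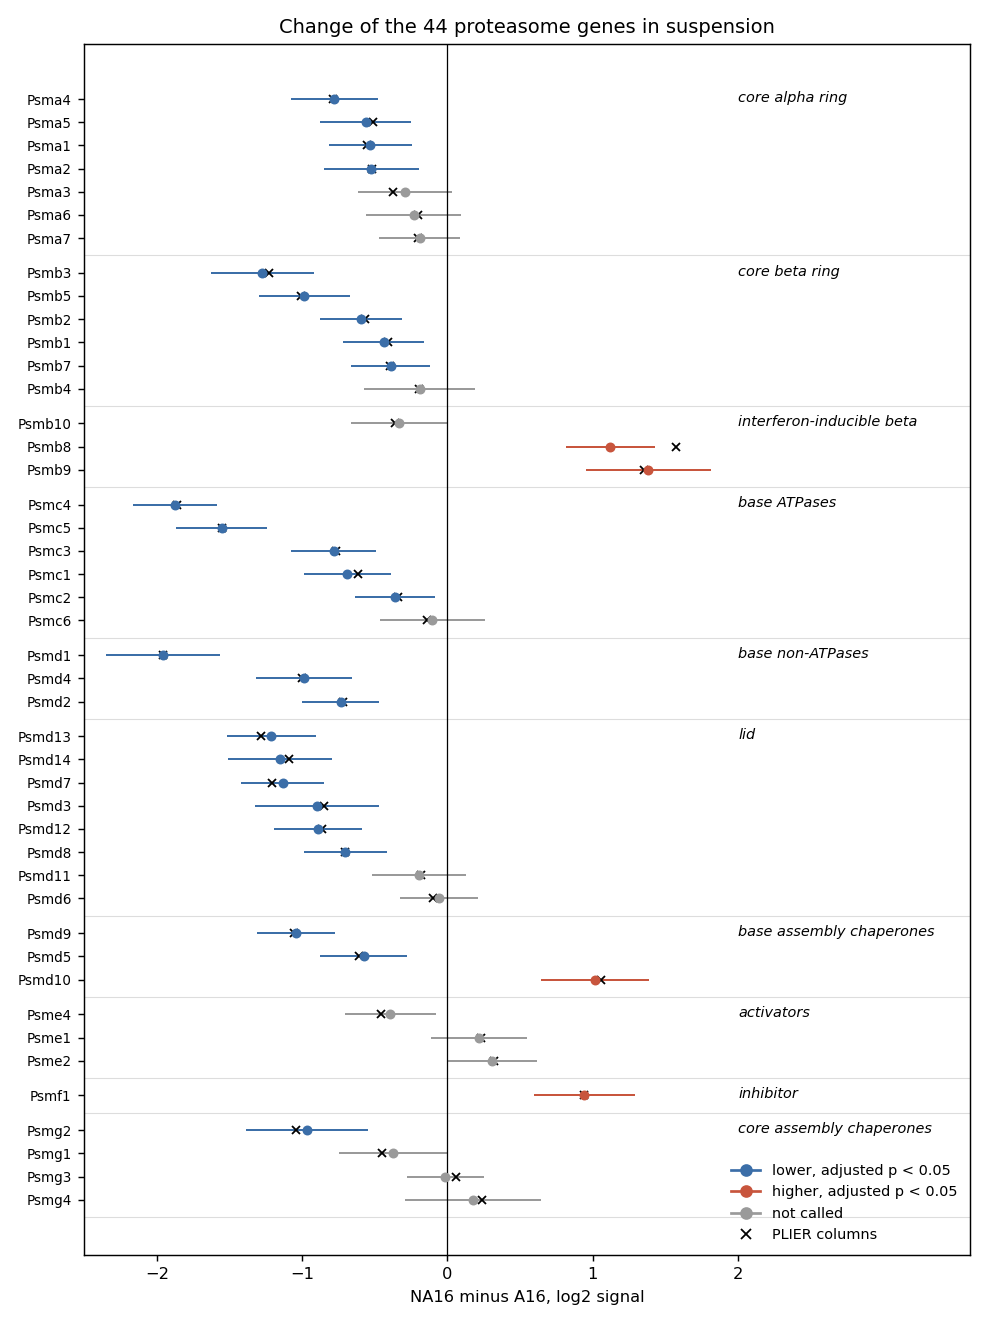
Log2 difference between NA16 and A16 (x axis) for the 44 proteasome genes (y axis), grouped by subcomplex; points are RMA values with their 95% confidence intervals, coloured by call, and crosses are the PLIER values. Of the 30 core, base and lid genes none lies on the higher side as a called gene, while Psmb8, Psmb9, Psmd10 and Psmf1 lie between 0.94 and 1.38.

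Divided by role, the 30 measured subunits of the standard 26S proteasome comprised 23 lower, 0 higher and 7 not called genes, with a median log2 change of -0.70. The log2 change of each of these 30 genes was below 0, so 0 were higher at an unadjusted p below 0.05 or by the methods' t-test as well. The other 14 members, which are inducible, regulatory or assembly factors, comprised 3 lower, 4 higher and 7 not called genes, with a median of 0.08. Their shares, 21.4% lower and 28.6% higher, were near the 26.9% and 29.1% of all genes brighter than the median gene. Within the standard proteasome, the 17 genes of the 19S particle had a median of -0.89, 14 of them lower and 6 of them at least 2-fold lower. The 13 genes of the core had a median of -0.52, 9 of them lower and 1 of them at least 2-fold lower. The changes also scattered more within the 19S particle (SD 0.56 over genes) than within the core (SD 0.32). The difference between the 19S particle and the core was described and not tested.

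**Figure D2:**
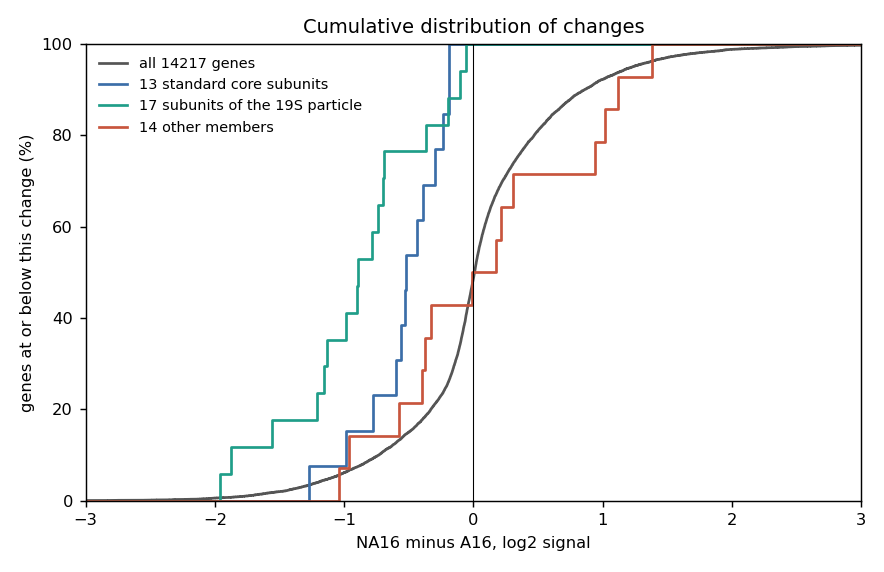
Share of genes (y axis, in percent) at or below a given log2 difference between NA16 and A16 (x axis) for all 14217 genes, the 13 standard core genes, the 17 genes of the 19S particle and the 14 other members. The curves of the core and of the 19S particle reach 100% below 0, and their medians are -0.52 and -0.89.

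The base of the 19S particle held the members that changed most. Psmd1 encodes the large scaffold subunit Rpn2 of the base. Its log2 signal was 10.47, 10.73 and 10.69 on the A16 arrays and 8.19, 8.74 and 8.91 on the NA16 arrays. The states did not overlap, and NA16 biological replicate 1 was the lowest array. The mean fell from 10.64 ± 0.06 to 8.69 ± 0.32 (SD, n = 2), a log2 change of -1.96 ± 0.16 (SE), or 3.88-fold (limma adjusted p = 0.00021). Psmc4 encodes the ATPase Rpt3. It read 12.37, 12.49 and 12.22 in A16 and 10.48, 10.38 and 10.48 in NA16. The NA16 arrays were nearly level and far below those of A16, with a log2 change of -1.88 ± 0.12 (SE) and a 3.67-fold lower signal (limma adjusted p = 9.79e-05). A second, dim probe set of Psmc4 had a log2 change of -0.10 and was not called, and the mean of both probe sets gave -0.99. Its neighbour in the ATPase ring, Psmc5 (Rpt6), was 2.94-fold lower (limma adjusted p = 0.000215).

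The other ATPase genes fell less or were not called. Psmc3 (Rpt5) was 1.72-fold, Psmc1 (Rpt2) 1.61-fold and Psmc2 (Rpt1) 1.29-fold lower. Psmc6 (Rpt4) had a log2 change of -0.10, with a 95% confidence interval from -0.47 to 0.26, and its 3 NA16 arrays (12.22, 11.94 and 11.70) overlapped those of A16 (12.05, 12.05 and 11.94). The dimmest of the 3 probe sets of Psmc6 was called lower, with a log2 change of -0.60, and the others were not called. Of the 6 ATPase genes, 5 were thus lower, between -0.36 and -1.88. The 2 other base subunits both fell: Psmd4, which encodes the ubiquitin receptor Rpn10, was 1.98-fold lower, and Psmd2, which encodes the scaffold subunit Rpn1, was 1.66-fold lower. In this ring the ATPases are present in equal number in the assembled particle, whereas their transcripts changed by amounts whose confidence intervals did not overlap between Psmc4 (-2.17 to -1.58) and Psmc6 (-0.47 to 0.26).

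**Figure D3:**
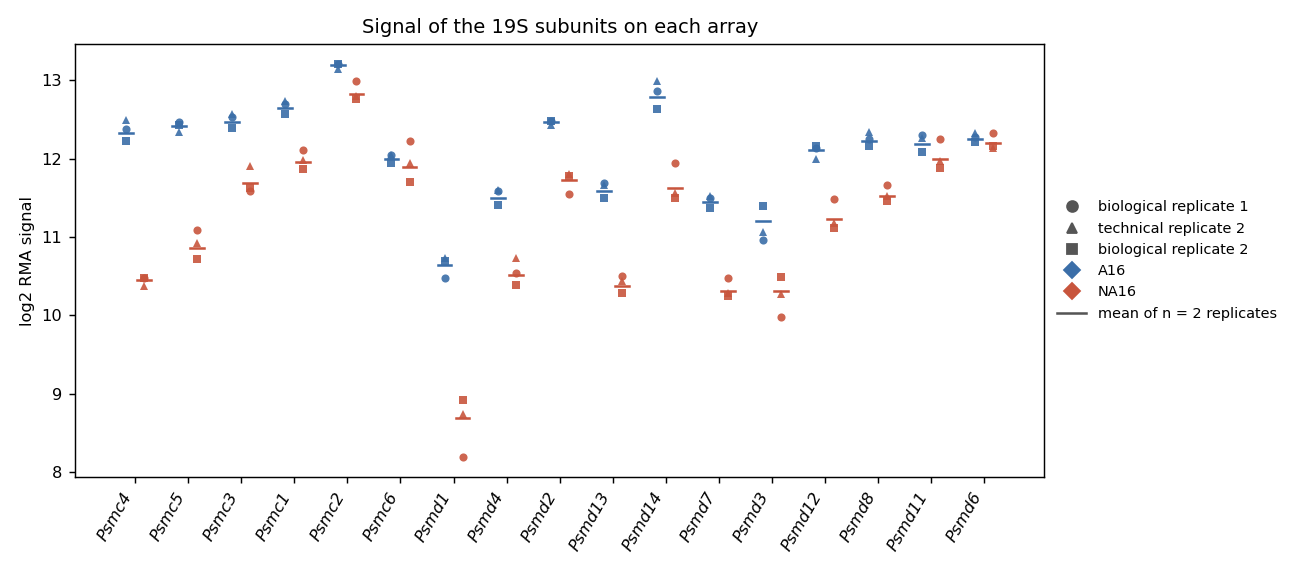
Log2 RMA signal (y axis) of the 17 genes of the 19S particle (x axis) in A16 and NA16; each symbol is 1 array, its shape gives the replicate, and a dash gives the mean (n = 2). Psmd1 went from 10.64 to 8.69 and Psmc4 from 12.33 to 10.45, while the arrays of Psmc6, Psmd11 and Psmd6 overlap between the states.

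In the lid, 6 of 8 genes were lower and 2 were not called, with a median log2 change of -0.90. Psmd13, which encodes the structural subunit Rpn9, read 11.68, 11.67 and 11.50 in A16 and 10.50, 10.43 and 10.28 in NA16. All NA16 arrays were below all A16 arrays by about the same step. The log2 change was -1.21 ± 0.13 (SE), 2.32-fold lower (limma adjusted p = 0.000511). The catalytic centre of the lid, the deubiquitinase Rpn11 encoded by Psmd14, works as a pair with Rpn8, encoded by Psmd7. Psmd14 was 2.22-fold lower (limma adjusted p = 0.00111), and its 3 probe sets were all called lower, with log2 changes of -1.15, -1.21 and -0.88. Psmd7 was 2.20-fold lower (limma adjusted p = 0.000507), and both of its probe sets were called lower. Of the remaining lid scaffold genes, Psmd3 (Rpn3) and Psmd12 (Rpn5) were each 1.86-fold lower and Psmd8 (Rpn12) was 1.63-fold lower. Psmd11 (Rpn6) had a log2 change of -0.19 (95% confidence interval -0.52 to 0.13) and Psmd6 (Rpn7) one of -0.06 (-0.33 to 0.21). Both intervals exclude a change as large as that of Psmd13.

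Of the 7 measured genes of the alpha ring, 4 were lower, 0 higher and 3 not called, with a median log2 change of -0.52. Psma4 fell most among them. It read 11.95, 11.98 and 11.93 in A16 and 11.41, 11.16 and 11.05 in NA16. The states did not overlap, and the log2 change was -0.78 ± 0.13 (SE), 1.72-fold lower (limma adjusted p = 0.00283). Psma5, Psma1 and Psma2 were 1.48-fold, 1.45-fold and 1.44-fold lower. Psma3, Psma6 and Psma7 were at -0.29, -0.23 and -0.19 and were not called, although the 3 NA16 arrays of Psma3 all lay below those of A16. The size of the alpha ring change depended on how technical replicate 2 was used, and its median was -0.41 without that array.

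Of the 6 measured genes of the standard beta ring, 5 were lower and Psmb4, at -0.19, was not called. Psmb3, a beta subunit without a cutting site, read 12.75, 12.99 and 12.51 in A16 and 11.60, 11.36 and 11.36 in NA16. It was the only core gene that fell at least 2-fold, by 1.27 on the log2 scale (2.42-fold, limma adjusted p = 0.000738). RefSeq names 7 pseudogenes of Psmb3, and the probes may read more than the parent transcript. Psmb5 carries the chymotrypsin-like cutting site, which is the site that proteasome inhibitor drugs occupy first. Its log2 signal was 13.33, 13.42 and 13.15 in A16 and 12.36, 12.36 and 12.20 in NA16. Every NA16 array was below every A16 array, and the log2 change was -0.98 ± 0.13 (SE), 1.98-fold lower (limma adjusted p = 0.00123). The 2 dimmer probe sets of Psmb5 were not called, at -0.26 and -0.35, and the mean over all 3 gave -0.53. Psmb7, with the trypsin-like site, read 12.73, 12.91 and 12.69 in A16 and 12.37, 12.38 and 12.36 in NA16. These arrays did not overlap, yet the difference was small, 1.31-fold (limma adjusted p = 0.0329). Psmb2 was 1.51-fold and Psmb1 1.36-fold lower.

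The calls of the smaller falls depended on the processing. Over 16 alternatives, the methods' t-test left aside, the call was kept in 15 for Psmd5, in 12 each for Psma1 and Psma5, in 11 for Psma2, in 9 for Psmb1, in 8 for Psmb7 and in 6 for Psmc2. The calls of the other 19 lower members and of the 4 higher members were kept in every one of these alternatives that measured them. Among members not called, Psma3 was called lower in 1 of the 16 alternatives and Psmg1 in 2. Among these alternatives the number of lower members ranged from 19, without A16 replicate 1, to 30.

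Of the interferon-inducible subunits, Psmb8 and Psmb9 were higher, unlike every standard core gene, and Psmb10 was not called. Psmb9 replaces Psmb6 in the immunoproteasome. It read 10.69, 10.91 and 11.22 in A16 and 12.36, 12.11 and 12.56 in NA16. All NA16 arrays were above all A16 arrays, and the mean rose from 11.01 ± 0.30 to 12.40 ± 0.23 (SD, n = 2), a log2 change of 1.38 ± 0.18 (SE), or 2.61-fold (limma adjusted p = 0.00114). Psmb8 replaces Psmb5. It was the only member dimmer than the median gene in its probe set and read 7.13, 6.94 and 7.29 in A16 and 8.37, 8.22 and 8.27 in NA16. The states did not overlap, and the log2 change was 1.12 ± 0.13 (SE), or 2.17-fold higher (limma adjusted p = 0.000666), and 1.57 in the PLIER columns. Psmb10 replaces Psmb7 and read 10.81, 11.03 and 10.60 in A16 and 10.66, 10.29 and 10.38 in NA16. Its states overlapped, with a log2 change of -0.33 (95% confidence interval -0.67 to 0.00, limma adjusted p = 0.115). Psmb10 was called lower in 2 of 16 alternatives, the replicate block and the one without A16 replicate 2.

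Within each array, the signal of Psmb8 relative to that of its standard counterpart Psmb5 shifted between the states. Such a difference between probe sets does not give the ratio of the transcripts, but its change between states can be followed. The log2 difference was -6.20, -6.48 and -5.86 in A16 and -3.99, -4.14 and -3.93 in NA16. It rose on all NA16 arrays, by 2.11 at the mean, which is a 4.30-fold shift. For Psmb10 relative to Psmb7 it was -1.92, -1.87 and -2.09 in A16 and -1.70, -2.09 and -1.97 in NA16. These overlapped, and the means differed by 0.06. No difference was formed for Psmb9 and Psmb6, since Psmb6 had no value. These differences are a description, and no test was run on them.

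The activators, which open the gate of the core without ubiquitin, were not called. Psme1 and Psme2 encode the interferon-inducible PA28 alpha and beta subunits. Psme1 read 12.57, 12.78 and 12.81 in A16 and 12.74, 12.90 and 13.10 in NA16, and Psme2 read 12.01, 12.19 and 11.83 in A16 and 12.41, 12.15 and 12.26 in NA16. Both overlapped between the states, with log2 changes of 0.22 (95% confidence interval -0.11 to 0.55) and 0.31 (0.00 to 0.62). Psme4, which encodes PA200, was at -0.39 with an adjusted p of 0.0525, and its 3 NA16 arrays all lay below those of A16. In 6 of 16 alternatives Psme4 was called lower, and in 1, the replicate block, Psme2 was called higher.

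The order of the genes beside these members on the chromosome was also examined, with values for Tap1, Tap2 and Irf9 only. In the RefSeq annotation of GRCr8, Psmb8 and Psmb9 lie on chromosome 20 in the major histocompatibility region, in the order Tap2, Psmb8, Tap1, Psmb9, next to RT1 class II genes. Tap1 and Tap2 encode the peptide transporter of the endoplasmic reticulum. Tap1 read 10.09, 10.19 and 10.29 in A16 and 11.49, 11.96 and 12.07 in NA16, and Tap2 read 8.19, 8.42 and 8.44 in A16 and 9.18, 9.63 and 9.40 in NA16. All 4 genes of this stretch were thus higher, Tap1 by 3.22-fold and Tap2 by 2.05-fold. Psme1 and Psme2 lie close together on chromosome 15, separated by Emc9, and only Rnf31 stands between Psme2 and Irf9, which encodes an interferon signalling factor and was 1.45-fold higher. Tap1, Tap2 and Irf9 belong to the interferon list described below. No values are given for the RT1 genes, Emc9 or Rnf31, so neither region is described as a whole.

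**Figure D4:**
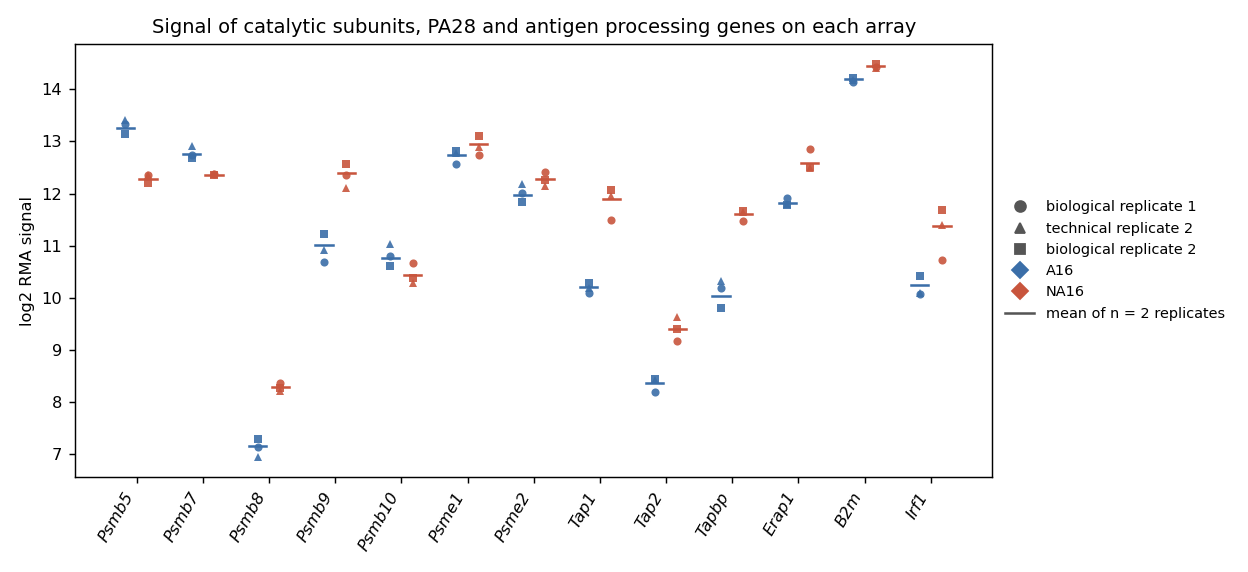
Log2 RMA signal (y axis) of catalytic subunits, PA28 subunits and antigen processing genes (x axis) in A16 and NA16; each symbol is 1 array, its shape gives the replicate, and a dash gives the mean (n = 2). Psmb5 went from 13.26 to 12.28 and Psmb9 from 11.01 to 12.40, while Psmb10, Psme1 and Psme2 overlap between the states.

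The chaperones that build the base of the 19S particle moved apart. Each belongs to an assembly module with different ATPases and leaves before the particle is complete. Psmd10, also known as the oncoprotein gankyrin, read 9.68, 9.95 and 9.55 in A16 and 11.02, 10.70 and 10.54 in NA16. All NA16 arrays were above all A16 arrays, and Psmd10 rose by a log2 change of 1.02 ± 0.16 (SE), or 2.03-fold (limma adjusted p = 0.00224). Psmd9 (p27) read 10.77, 10.85 and 10.85 in A16 and 9.81, 9.86 and 9.74 in NA16. It was 2.06-fold lower (limma adjusted p = 0.00052), both of its probe sets were called lower, and the states did not overlap. Psmd5 (S5b) was 1.49-fold lower. By their known roles, gankyrin belongs to the module of the ATPases encoded by Psmc4 and Psmc5, which fell 3.67-fold and 2.94-fold. The p27 protein belongs to that of Psmc3 and Psmc6, which were at -0.78 and -0.10, and S5b to that of Psmc1 and Psmc2, at -0.69 and -0.36. Of these 3 chaperone genes, the one that rose was thus the one in whose module the ATPase genes fell most. The matching of chaperones to modules was not part of the design, and a link between these changes was not tested. Base chaperones without a Psm symbol were not followed. Psmd10 relative to Psmd9 shifted by 2.06 on the log2 scale within arrays, a pair chosen after its values were seen.

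The inhibitor gene Psmf1 encodes PI31, a protein that binds the core. It read 10.91, 10.94 and 10.57 in A16 and 11.69, 11.73 and 11.67 in NA16. The NA16 arrays were close together above those of A16, and the log2 change was 0.94 ± 0.15 (SE), or 1.92-fold higher (limma adjusted p = 0.00229). Of the 4 chaperones that assemble the core, only Psmg2 was called. It read 10.70, 10.97 and 10.37 in A16 and 9.74, 9.74 and 9.53 in NA16 and was 1.95-fold lower (limma adjusted p = 0.0048). Its partner in a heterodimer, Psmg1, was at -0.38 with overlapping arrays, and Psmg3 and Psmg4, which form the other dimer, were at -0.01 and 0.18.

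The promoters of members were examined for letters known from the control of proteasome genes. The factors Nfe2l1 and Nfe2l2 bind the antioxidant response element, through which Nfe2l1 raises subunit transcription when proteasome activity is short, and interferon acts on the inducible subunits through elements bound by the Stat and Irf factors. Windows from 250 bases before to 50 bases after the transcription start were taken from RefSeq (GRCr8). A window was there for 40 of 44 members, and none for Psma7, Psmd6, Psmd12 and Psmd14. Both strands were searched, and matches of different motifs were counted apart even where they shared bases. The letters TGACNNNGC, the antioxidant element, were in 7 of 40 member windows (17.5%) and in 12.1% of all 33469 windows. They were in 5 of 24 windows of lower members and in 2 of 16 windows of the other members. Printed here for their place in the control of the standard subunits are the windows of the 4 members with this motif that changed most, in the direction of transcription, with each TGACNNNGC match in capitals. Psmd1 is at chr9:94157721-94158020 (+ strand), Psmd9 at chr12:39018215-39018514 (- strand), Psmb5 at chr15:32047330-32047629 (- strand) and Psmd3 at chr10:84139688-84139987 (+ strand).
Psmd1: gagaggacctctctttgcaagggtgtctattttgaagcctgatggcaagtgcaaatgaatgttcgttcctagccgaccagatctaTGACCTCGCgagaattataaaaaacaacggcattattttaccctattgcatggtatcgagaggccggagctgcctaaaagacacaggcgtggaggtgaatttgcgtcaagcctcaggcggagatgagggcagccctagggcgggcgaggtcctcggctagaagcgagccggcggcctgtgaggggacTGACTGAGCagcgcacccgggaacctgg
Psmd9: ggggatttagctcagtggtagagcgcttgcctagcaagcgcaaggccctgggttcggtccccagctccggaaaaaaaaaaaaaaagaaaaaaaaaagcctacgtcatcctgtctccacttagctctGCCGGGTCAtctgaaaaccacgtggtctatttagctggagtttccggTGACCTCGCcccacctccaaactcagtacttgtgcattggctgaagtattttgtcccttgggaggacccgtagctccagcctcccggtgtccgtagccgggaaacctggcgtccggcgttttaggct
Psmb5: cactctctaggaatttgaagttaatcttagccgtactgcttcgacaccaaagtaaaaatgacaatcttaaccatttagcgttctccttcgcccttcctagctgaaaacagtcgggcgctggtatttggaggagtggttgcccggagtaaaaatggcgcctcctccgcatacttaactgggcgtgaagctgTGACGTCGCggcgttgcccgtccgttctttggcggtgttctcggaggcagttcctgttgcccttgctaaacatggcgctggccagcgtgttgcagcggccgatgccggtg
Psmd3: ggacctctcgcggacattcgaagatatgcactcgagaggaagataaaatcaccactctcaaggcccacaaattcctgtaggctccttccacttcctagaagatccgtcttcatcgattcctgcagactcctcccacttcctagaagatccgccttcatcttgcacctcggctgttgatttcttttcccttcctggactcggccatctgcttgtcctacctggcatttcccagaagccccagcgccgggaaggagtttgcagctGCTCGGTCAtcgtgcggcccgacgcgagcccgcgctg

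Psmd1 and Psmd9 each held 2 matches of the antioxidant element, and Psmb5 and Psmd3 each held 1. Psmc4 and Psmc5, which followed Psmd1 in size of change, held none, and such a lack says only that these letters are not in the window. The CCAAT box, bound by the factor NF-Y, was in 20 of 40 member windows (50%) and in 37.5% of all windows. It was in 14 of 24 windows of lower members and in 6 of 16 of the other members. TGATGNAA, a composite element bound by Atf4, was in 2 of 40 member windows and 3.98% of all windows, and GAANNTTC, part of the heat shock element, in 3 of 40 and 8.59%.

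For the inducible subunits the motifs were TTCNNNGAA, bound by Stat factors, and GAAANNGAA, the core of the interferon-stimulated element. TTCNNNGAA was in 4 of 40 member windows and 8.87% of all windows, and GAAANNGAA in 9 of 40 (22.5%) and 9.71%. TTCNNNGAA was in 2 of 24 windows of lower members and in 2 of 16 of the other members. For GAAANNGAA these were 4 of 24 and 5 of 16, so standard subunits that fell held it too. The windows of the 3 inducible subunits are printed since Psmb8 and Psmb9 rose and Psmb10 was not called, with matches of either motif in capitals. Psmb8 is at chr20:4656982-4657281 (- strand), Psmb9 at chr20:4668750-4669049 (+ strand) and Psmb10 at chr19:50743243-50743542 (- strand).
Psmb8: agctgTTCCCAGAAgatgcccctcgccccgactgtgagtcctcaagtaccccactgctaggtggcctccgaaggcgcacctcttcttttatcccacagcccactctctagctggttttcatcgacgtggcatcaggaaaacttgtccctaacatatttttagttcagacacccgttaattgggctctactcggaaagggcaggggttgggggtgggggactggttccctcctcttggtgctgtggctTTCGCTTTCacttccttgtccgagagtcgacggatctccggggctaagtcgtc
Psmb9: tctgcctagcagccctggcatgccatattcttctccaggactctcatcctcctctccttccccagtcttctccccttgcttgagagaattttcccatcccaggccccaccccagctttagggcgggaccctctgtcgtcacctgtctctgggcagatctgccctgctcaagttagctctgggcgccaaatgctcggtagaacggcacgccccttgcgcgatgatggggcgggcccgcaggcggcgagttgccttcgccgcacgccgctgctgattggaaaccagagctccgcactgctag
Psmb10: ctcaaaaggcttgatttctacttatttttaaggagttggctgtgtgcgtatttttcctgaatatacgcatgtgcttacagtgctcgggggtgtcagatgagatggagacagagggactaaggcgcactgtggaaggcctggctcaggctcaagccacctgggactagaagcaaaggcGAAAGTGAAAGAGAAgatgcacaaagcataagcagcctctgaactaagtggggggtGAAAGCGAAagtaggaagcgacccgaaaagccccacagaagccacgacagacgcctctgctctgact

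Psmb10 held 3 matches of GAAANNGAA, 2 of them overlapping, and was not called, whereas Psmb9, which rose most of all members in the RMA columns (in the PLIER columns Psmb8 did, 1.57 against 1.36), held no match of either motif in this window. Psmb8 held 1 match of each. The number of matches thus did not follow the change among these 3 genes.

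Other genes of the ubiquitin and proteasome pathway were described from lists. Of 9 measured assembly factors and bound partners of the proteasome, 4 were lower and 2 higher, with a median log2 change of -0.40. Sem1, the small last subunit of the lid, was 1.58-fold lower, and Pomp, which matures the core, was 1.51-fold lower. Fbxo7, which binds the inhibitor PI31 encoded by Psmf1, was 2.1-fold higher. The ubiquitin receptor gene Adrm1 read 9.22, 9.26 and 11.11 in A16 and 7.15, 8.55 and 9.26 in NA16, with arrays of both states far apart among themselves and no call (limma adjusted p = 0.094). Of 7 measured genes of ubiquitin and its activation, 4 were lower and 0 higher, with a median of -0.45. The conjugating enzyme gene Cdc34 was 2.44-fold lower, Ube2k 1.80-fold lower and the activating enzyme gene Uba1 1.60-fold lower. Of 11 shuttles and partners of the unfolding ATPase p97, 5 were lower and 1 higher, with a median of -0.22. The p97 cofactor gene Nploc4 was 2.16-fold lower, and the p97 gene itself, Vcp, 1.4-fold lower. The stress-inducible proteasome partner gene Zfand2a was 1.91-fold higher.

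Among 12 measured genes that control proteasome transcription, 4 were higher and 3 lower, with a median of -0.11. Nfe2l1, the factor that restores proteasome genes, read 8.76, 9.12 and 9.52 in A16 and 9.71, 9.86 and 9.80 in NA16. Its arrays did not overlap, but the spread in A16 was wide and it was not called (log2 change 0.56, limma adjusted p = 0.0565). Ngly1, the enzyme that processes the Nfe2l1 protein, was 2.03-fold higher. Nfe2l2 was 1.36-fold higher. Maff, a small Maf partner of these factors, was 4.64-fold higher. The other small Maf genes of the list did not rise: Mafk was 1.32-fold lower, and Mafg, at -0.16, was not called. The heat shock factor gene Hsf1 was 2.01-fold lower. Of 17 genes of interferon signalling and antigen processing, 14 were higher and 0 lower, with a median of 1.05. The antiviral gene Mx1 rose most, from 8.79 ± 0.60 to 12.05 ± 0.41 (SD, n = 2), or 9.57-fold. Tap1 and the peptide loading chaperone gene Tapbp followed, 3.22-fold and 3.0-fold higher. The shares of these lists stand beside 16.9% lower and 21.9% higher over all genes. Among genes brighter than the median gene the shares were 26.9% and 29.1%. Those of the list of control genes, 25% and 33.3%, were near these.

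**Figure D5:**
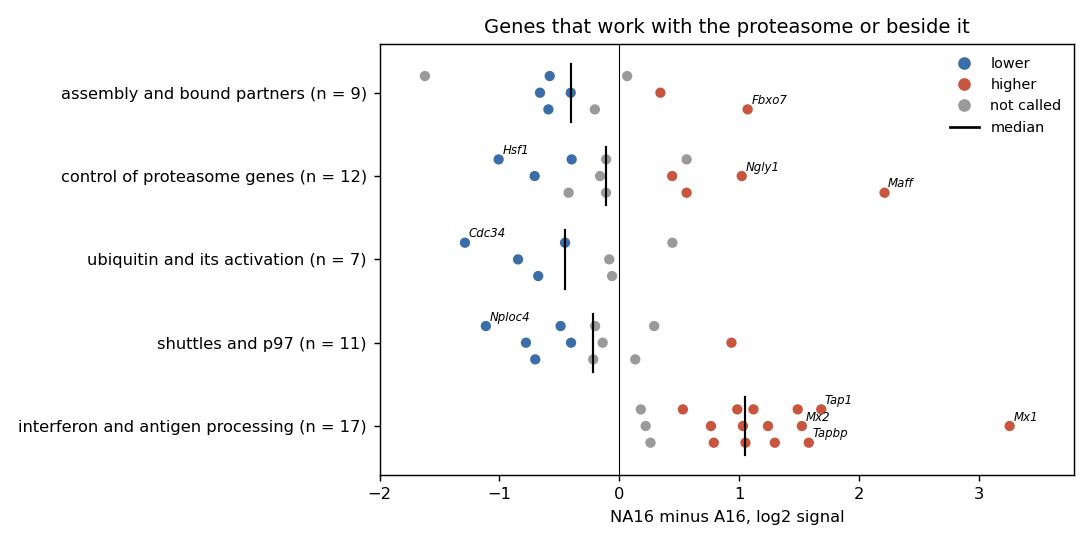
Log2 difference between NA16 and A16 (x axis) for each measured gene of 5 lists around the proteasome (y axis); points are genes coloured by call, black lines are list medians, and some of the called genes that changed most are named. The interferon and antigen processing list has a median of 1.05 with 14 of 17 genes called higher, and the ubiquitin list one of -0.45.

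Some features of the arrays differed with the state as well. The beta-actin control probes at the 3′ end exceeded those at the 5′ end by 0.37 to 0.44 on the log2 scale in A16 and by 0.87 to 0.93 in NA16, whereas for Gapdh this difference was -0.07 to 0.00 and -0.03 to 0.06. The fibroblast markers Vim, Col1a1 and Col1a2 were at the top of the scale in both states, and of 10 fibroblast markers 4 were higher and 0 lower, with summed linear signals of 98015 to 115500 in A16 and 83637 to 110049 in NA16. Of 9 macrophage and leukocyte markers 2, Cd68 and Lyz2, were higher. The defining markers Ptprc, Csf1r and Adgre1 were dimmer than the median gene in both states. Cd14 was brighter, at 10.52 in A16 and 10.17 in NA16, and was not called. The summed signals were 1958 to 2255 in A16 and 2003 to 2300 in NA16. Of 5 epithelial markers 2, Krt8 and Epcam, were higher, with sums of 1203 to 1386 and 2632 to 3087. These sums came mostly from Krt8, at 10.12 in A16 and 11.38 in NA16. Epcam was dim, at 5.95 and 6.49, and Krt18, Krt19 and Cdh1 were dim and not called. Of 4 endothelial markers 1 was higher, with sums of 242 to 279 and 290.3 to 293.9. The part of RNA quality and of these markers in the proteasome changes was not tested.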

How the data were processed

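Labelled RNA of F111 cells was hybridised by the authors to Affymetrix whole-genome rat arrays, scanned with the GeneChip Operating Software and normalized in Avadis by RMA and by PLIER (the versions of these algorithms are not given in the sources used). The deposited values are linear intensities in 12 columns, which are 6 arrays by both algorithms, and none lay below 16, so that changes of dim genes may be understated. The design provided for linear intensities, and log2 of each RMA intensity was taken here. Each gene was read from its brightest probe set with 1 symbol (20826 of 31042 probe sets that were not controls, 14217 genes). The Entrez identifiers of all 44 members matched the RefSeq gene table of GRCr8, and 0 symbols changed. RefSeq names 40 pseudogenes for 17 members, and these may share probes with them.

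The states were compared with limma 3.58.1 (lmFit, then eBayes, under R 4.3.3), which had 2 residual and 4.78 prior degrees of freedom. P-values were adjusted by Benjamini-Hochberg over the whole set of genes, and a gene was called at an adjusted p below 0.05. The number of arrays limits the precision, and array medians lay between 152.5 and 157.9. The fit was tested on simulated data of 14217 genes with 200 changed, and recovered 8.96% of 1.5-fold, 76.1% of 2-fold and 98.5% of 4-fold changes with 4.69% false calls. In the real data far more genes were called, 2409 lower and 3115 higher. The adjusted threshold depends on that share, so the simulated recovery need not hold for these data. The members and the lists, among them the subcomplexes, pathway lists, markers and motifs, were chosen with earlier results of these data known, and no list was tested as a set. Values on each array are given for the measured members from Psmb5 to Psmb10, for the called members of each subcomplex that rose or fell most, and for those called against most of their subcomplex. From each pathway list up to 3 called genes were named by size of change. The remaining pathway genes, the pair Psmd10 and Psmd9, Psme1, Psme2, Psmc6, Adrm1, Nfe2l1, Vcp, Irf9 and Tap2 were named after their values were seen. Nfe2l2, Mafk and Mafg were also named afterwards. Alternatives were the PLIER columns, 16 subtracted, the mean of all probe sets, other uses of technical replicate 2, quantile normalization again, centring on 46 ribosomal protein genes, the genes brighter than the median gene, a variance with trend and robust fit, the methods' t-test, the replicate block and each replicate left out. Another use of technical replicate 2, in NA16 only, was chosen after seeing the data. Protein sequences were not used here.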

Additional observations from a re-analysis of the deposited data

How the results depend on the processing

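No called member changed direction under any alternative. The methods' t-test at an unadjusted p below 0.05 with at least a 2-fold change gave 8 lower and 3 higher members (789 and 1020 genes in all), and limma with the same fold gave the same numbers of members, 8 and 3. After Benjamini-Hochberg adjustment and with no fold asked for, the methods' t-test, which does not moderate the variance, gave 0 and 0 (7 and 13 genes), with 22 and 4 members at an unadjusted p below 0.05. With the replicate number as a replicate block, 30 members were lower and 5 higher (3111 and 3908 genes), so that it ended no call. The labels share only the number, and deviations of same-numbered replicates correlated at 0.557 over genes in the 2 pairs. With 1 replicate left out, lower members numbered 19 to 26, higher members 4, lower genes 2010 to 2078 and higher genes 2439 to 2631; the lone replicate was assumed to vary like the other state. With technical replicate 2 averaged with biological replicate 2 in NA16 only, which was chosen after seeing the data, 20 members were lower and 4 higher.

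The median log2 change of the alpha ring was -0.41 without technical replicate 2, -0.41 with it averaged with biological replicate 2 in NA16 only, and -0.60 to -0.39 with 1 replicate left out. That of the inducible beta subunits was 1.36 in the PLIER columns, 0.53 over genes brighter than the median gene, which leaves out Psmb8, and 0.99 to 1.25 with 1 replicate left out. That of the activators was 0.073 to 0.30 with 1 replicate left out. The shift of Psmb8 against Psmb5 was 2.58 in the PLIER columns and 1.65 where all probe sets of a gene were averaged. The other medians and differences moved by less than the spread between replicates. With 1 replicate left out this was fixed in advance for the differences and for the inhibitor, which is 1 gene. The reason is that the spread came from the same 2 replicates. The spread of the other medians came from these replicates as well. Those settings therefore do not show how stable the differences or the medians are. Over members the RMA and PLIER changes differed by at most 0.45. Of the members only Psmb8 was dimmer than the median gene. Whether a constant of 16 was added to the deposited values is not stated. If it was, the changes of dim genes may be understated. With 16 subtracted, the log2 change of Psmb8 was 1.22.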
